A study of Homo sapiens with 9 samples.

Results

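The 9 genes described here encode the T cell receptor complex and the kinases and adaptors next to it: CD3D, CD3E, CD3G, CD247, CD2, CD8A, LCK, ZAP70 and LAT. They were selected on their measured values, because they lay above the empty vector in the libraries labelled hPRM1 and, for LCK, in hPRM2 as well. All 9 were found among the 57338 genes of the deposited table, and a wider set of 86 genes of the same pathway is given beside them. The values that chose the 9 genes are therefore given as a description, with no p-value, and nothing is read from how many of them pass a threshold.

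RNA was measured in 9 libraries that the labels describe as HEK293T, a human embryonic kidney cell line, with 3 libraries in each of 3 groups numbered as replicates 1 to 3. In the 3 libraries labelled hPRM1, 11 of 14 HEK293T markers were at 0 (1 of them, LIN28A, also in the empty vector). Markers of blood cells were high there, so the labels may not match what these libraries hold. By the study's methods, the cells of all groups received a pcDNA3.1 plasmid with TransIT-LT1 and were sorted for live cells with a high EGFP signal 3 days later. The plasmid carried EGFP alone in the empty vector group, a fusion of EGFP and human protamine 1 in the hPRM1 group, and a fusion of EGFP and human protamine 2 in the hPRM2 group. No cells without a plasmid were analysed here, and nothing in the labels states that the 3 replicates of a group were separate cultures, so p-values measure the spread between these libraries. The reads come from the 3′ ends of transcripts, and the authors divided them by the library total and by gene length to give RPKM, a level per gene length.

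The label check did not come out alike for the 3 groups. PRM2 was listed at 71220, 60050 and 36130 RPKM in hPRM2 replicates 1, 2 and 3 and at 0 in the other 6 libraries. PRM1 was listed at 0 in all 9 libraries, including those of the hPRM1 group, which are therefore called the libraries labelled hPRM1. Whether a 3′ read of the plasmid transcript would fall on the annotated PRM1 gene was not tested. Estimated from the spacing of low values, the reads on genes numbered 7900000 to 10700000 for the empty vector, 4180000 to 5820000 for the libraries labelled hPRM1 and 1270000 to 2660000 for hPRM2. A listed 0 was taken to allow a level at which as many as 3 reads would be expected, for counting error only. That level is 0.28 to 0.38 CPM (the value before division by length) in the empty vector. It is 0.516 to 0.718 CPM in the libraries labelled hPRM1 and 1.13 to 2.36 in hPRM2. The library numbers in the labels run in 1 series for the empty vector and hPRM2 and in another for the libraries labelled hPRM1, so the effects of library series and plasmid cannot be told apart.

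The T cell receptor recognizes peptides held on MHC molecules, but its antigen-binding chains have almost no cytoplasmic part and signal through the CD3 chains and the ζ chain, which carry tyrosine motifs. The kinase LCK, which binds the coreceptors CD4 and CD8, phosphorylates these motifs. ZAP70 then binds them and phosphorylates the adaptor LAT, from which calcium, MAP kinase and NF-κB branches start. Most of these proteins are restricted to T cells and natural killer cells, and embryonic kidney cells are not known to use this pathway.

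Promoter sequences of RefSeq (GRCh38.p14, 250 bases before to 50 after a transcript start) were matched to 7 of the 9 genes, with 14 promoters in all. CD3E and CD3G had no entry. ETS and RUNX factors are well known regulators of lymphoid genes, so both strands were searched for the ETS core AGGAAGT and the RUNX site TGTGGT, which do not overlap each other in the sequences shown. The ETS core was found in 3 of the 14 promoters and the RUNX site in 3, against 8.24% and 13.1% of all 35116 promoters of this length, and 1 promoter held both, against 1.28% of all. A match of letters is a description and shows neither binding nor use. The promoters with a match are shown for LCK, the gene that also lay above the empty vector in hPRM2, and for CD247 and CD3D, which encode chains of the receptor complex. Capitals mark the matched letters, which appear as ACTTCCT where the ETS core lies on the other strand.
LCK distal promoter, plus strand, chr1:32251015-32251314: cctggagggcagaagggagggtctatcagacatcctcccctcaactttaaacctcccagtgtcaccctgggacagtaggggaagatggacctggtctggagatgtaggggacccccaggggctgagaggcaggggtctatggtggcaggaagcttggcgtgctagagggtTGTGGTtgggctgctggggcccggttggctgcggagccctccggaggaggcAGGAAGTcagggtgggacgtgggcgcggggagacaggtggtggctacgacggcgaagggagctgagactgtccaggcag
LCK proximal promoter, plus strand, chr1:32273871-32274170: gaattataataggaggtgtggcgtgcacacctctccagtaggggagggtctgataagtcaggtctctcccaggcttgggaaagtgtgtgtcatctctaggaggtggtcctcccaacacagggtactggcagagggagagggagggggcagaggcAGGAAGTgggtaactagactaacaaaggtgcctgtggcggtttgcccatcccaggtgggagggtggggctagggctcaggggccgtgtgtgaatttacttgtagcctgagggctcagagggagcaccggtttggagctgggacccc
CD247 promoter, minus strand, chr1:167518480-167518779: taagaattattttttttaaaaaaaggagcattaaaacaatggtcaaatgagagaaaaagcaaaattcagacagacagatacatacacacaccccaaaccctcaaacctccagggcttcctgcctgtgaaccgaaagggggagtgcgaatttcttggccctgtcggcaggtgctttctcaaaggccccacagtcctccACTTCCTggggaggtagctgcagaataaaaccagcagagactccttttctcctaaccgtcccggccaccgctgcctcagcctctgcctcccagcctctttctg
CD3D promoter, minus strand, chr11:118342656-118342955: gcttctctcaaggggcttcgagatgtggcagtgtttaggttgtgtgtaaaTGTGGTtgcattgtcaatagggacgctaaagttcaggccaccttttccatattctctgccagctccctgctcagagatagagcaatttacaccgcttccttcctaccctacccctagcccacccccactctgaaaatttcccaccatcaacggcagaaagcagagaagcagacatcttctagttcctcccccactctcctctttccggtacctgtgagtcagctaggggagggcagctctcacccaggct
The distal LCK promoter was the one with both matches, and the proximal promoter held the ETS core alone. The remaining RUNX match lay in a promoter of LAT, at chr16:28984802-28985101. Reads from the 3′ end do not tell which of the starts of LCK was used in a library.

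The genes of the CD3 chains were at 0 or near it in the empty vector and hPRM2 and well above 0 in every library labelled hPRM1. CD3D, CD3E and CD3G, which encode the δ, ε and γ chains, lie next to each other on chromosome 11 (GRCh38, GENCODE 29: 118338954-118342744, minus strand, 118304545-118316175, plus strand, and 118344344-118355161, plus strand). CD3D was listed at 20.7, 27.6 and 40.2 RPKM in replicates 1, 2 and 3 labelled hPRM1 and at 0 in the other 6 libraries. CD3E was listed at 27.7, 48.3 and 45.7 RPKM and likewise at 0 in the other 6. CD3G was listed at 51.1, 121 and 74.9 RPKM, with 0.406 RPKM in hPRM2 replicate 1 as its single value above 0 elsewhere. That single value equals 2.63 reads on the longest annotated transcript and fewer on a shorter one, so it rests on very few reads.

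CD247 encodes the ζ chain, the subunit with the most tyrosine motifs, and lies on chromosome 1 (167430640-167518610, minus strand). It was listed at 151, 218 and 219 RPKM in the libraries labelled hPRM1 and at 0 in the empty vector and hPRM2. No library of the labelled hPRM1 group overlapped the other 6 for any of the 4 chains. Over all genes tested, 14.5% lay wholly above the empty vector in these libraries, and 19.0% lay wholly above hPRM2. The differences from the empty vector on the log2(RPKM + 1) scale, which understates the change of low genes and is no bound where a group is at 0, were 4.88 for CD3D, 5.34 for CD3E, 6.29 for CD3G and 7.60 for CD247, with standard errors of 0.28, 0.26, 0.33 and 0.22. In bulk RNA, fewer cells of a type and less RNA per cell cannot be told apart, which holds for each level given here.

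The surface molecules CD2 and CD8A followed the same order of groups. CD2 binds CD58 on other cells and strengthens contact, and the gene lies on chromosome 1 (116754385-116769228, plus strand). It was listed at 42.5, 68.3 and 32.1 RPKM in the libraries labelled hPRM1 and at 0 in the other 6. CD8A, the α chain of the CD8 coreceptor, on chromosome 2 (86784610-86808396, minus strand), was listed at 7.01, 14.1 and 12.3 RPKM in the libraries labelled hPRM1, at 0.438, 0.406 and 0 RPKM in the empty vector and at 0 in hPRM2. For both genes, every library labelled hPRM1 lay above the other 6. Such a gap from the empty vector was found for 14.5% of all genes tested, and from hPRM2 for 19.0%. Relative to the empty vector, the log2 differences in the libraries labelled hPRM1 were 5.54 (SE 0.30) for CD2 and 3.21 (SE 0.32) for CD8A.

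LCK was the one gene of the 9 that was higher in every library of both plasmid groups than in any library of the empty vector. Over all genes tested, 14.5% lay wholly above the empty vector in the libraries labelled hPRM1 and 6.01% in hPRM2. LCK lies on chromosome 1 (32251239-32286165, plus strand) and encodes the Src-family kinase that starts the cascade. In the empty vector it was listed at 0, 2.09 and 3.03 RPKM, or 1.71 ± 1.55 on average (SD, n = 3). Replicates 1, 2 and 3 labelled hPRM1 had 21.7, 29.5 and 27.1 RPKM (26.1 ± 3.96), and hPRM2 had 70.6, 45.3 and 33.3 RPKM (49.7 ± 19.1). As deposited, all 3 values of hPRM2 lay above all 3 of the libraries labelled hPRM1, an order that turned after rescaling, and both lay above the empty vector. If every read came from the longest annotated transcript, these values equal 359, 110 and 102 reads in hPRM2 replicates 1, 2 and 3 and up to 62.2 reads in an empty vector library, and fewer for shorter transcripts.

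The log2 difference of LCK from the empty vector was 4.39 (SE 0.70) for hPRM2 and 3.54 (SE 0.52) for the libraries labelled hPRM1, and both comparisons share the same 3 empty vector libraries. The order of the 2 plasmid groups depended on the scaling. Their difference (libraries labelled hPRM1 minus hPRM2) was -0.85 as deposited, 1.05 after median-of-ratios rescaling and 0.61 after quantile normalization. After the rescaling, the means were 69.8 ± 6.67 in the libraries labelled hPRM1 and 34.2 ± 9.60 in hPRM2, and 0.81 ± 0.75 in the empty vector (SD, n = 3 each). A misc_RNA gene, RF00017, overlaps LCK over 260 bases on the opposite strand. It was listed at 37.1 RPKM in empty vector replicate 1, where LCK was at 0, and at 0 in the other 8 libraries. Whether the counting used strand is not given in the sources used here.

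ZAP70, the kinase that docks on phosphorylated CD3 and ζ chains, did not follow LCK in hPRM2. The gene lies on chromosome 2 (97713560-97739862, plus strand). It was listed at 6.97, 10.2 and 4.80 RPKM in the libraries labelled hPRM1, at 0.617, 0 and 0 in the empty vector and at 0 in all 3 hPRM2 libraries. The log2 difference of the libraries labelled hPRM1 from the empty vector was 2.77 (SE 0.34), the smallest of the 9 genes. For ZAP70, 3 reads on the shortest annotated transcript of at least 400 bases would give up to 8.26 RPKM in hPRM2, above the 4.80 RPKM of the lowest library labelled hPRM1, so a level of that size could not be detected there for certain. For the other 8 genes such a limit in hPRM2 lay below the lowest library labelled hPRM1.

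LAT, the membrane adaptor on chromosome 16 (28984826-28990783, plus strand), was uneven in hPRM2. The libraries labelled hPRM1 had 50.1, 50.2 and 43.8 RPKM (48.0 ± 3.68, SD, n = 3). In the empty vector LAT was listed at 0, 0 and 3.51 RPKM, and in hPRM2 at 0, 28.3 and 30.9 RPKM (19.7 ± 17.1). The libraries labelled hPRM1 lay above the other 6, while hPRM2 overlapped the empty vector through replicate 1. The log2 difference from the empty vector was 4.89 (SE 0.60) for the libraries labelled hPRM1 and 2.57 (SE 1.44) for hPRM2, and the latter was 4.21 without hPRM2 replicate 1. Without hPRM2 replicate 2 or 3 it was 1.77 or 1.71.

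The LAT locus holds a second gene on the same strand, AC109460.3, a processed transcript that overlaps LAT over 5950 bases. AC109460.3 was listed at 9.49, 0 and 0.273 RPKM in hPRM2 replicates 1, 2 and 3, so the hPRM2 library with LAT at 0 was the one in which the overlapping gene was highest. In the other 6 libraries it was between 0 and 1.34 RPKM. Reads of overlapping genes can be split between them by the counting, so the level of LAT in hPRM2 is uncertain.

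**Figure D1:**
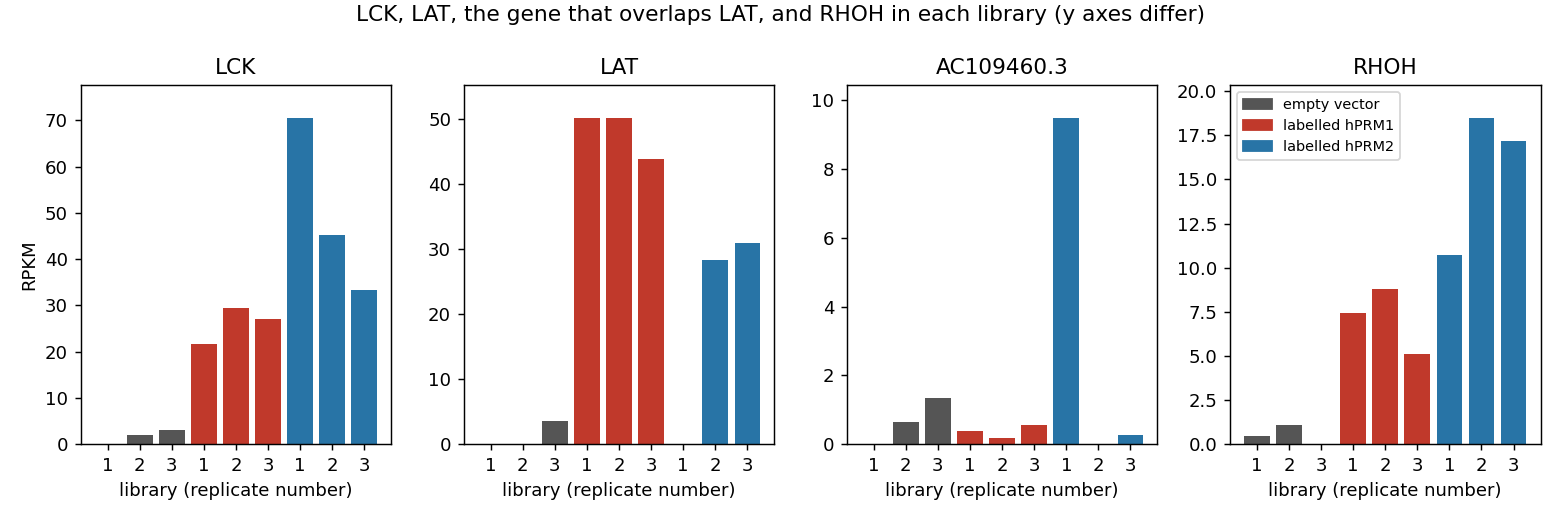
RPKM of LCK, LAT, AC109460.3 (which overlaps LAT on the same strand) and RHOH, with 1 bar for each library in the order empty vector, labelled hPRM1 and hPRM2, and an axis from 0 in each panel. As deposited, LCK and RHOH are highest in hPRM2, although for both the order of the plasmid groups turns after rescaling, and LAT is at 0 in hPRM2 replicate 1, where AC109460.3 is at 9.49.

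Within the libraries labelled hPRM1, the levels per gene length ran from CD247 (196 ± 39.0 RPKM) through CD3G (82.5 ± 35.7), LAT (48.0 ± 3.68), CD2 (47.7 ± 18.7), CD3E (40.6 ± 11.2), CD3D (29.5 ± 9.89), LCK (26.1 ± 3.96) and CD8A (11.1 ± 3.68) to ZAP70 (7.32 ± 2.71; SD, n = 3 each). Of the neighbors in this order, CD247 and CD3G, CD3G and LAT, and LCK and CD8A did not overlap, and the other 5 pairs did. Because 3′ reads do not grow with gene length, dividing by length lowers long genes, and the order is no order of transcript numbers. The coefficient of variation across the 3 libraries had a median of 33.0% for the 9 genes (7.65% for LAT to 43.3% for CD3G). It was 22.5% over the 4149 genes with a mean in the same range. As deposited, replicate 2 was the highest library for 7 of the 9 genes, and replicate 1 was the lowest for 6. Median-of-ratios rescaling divided replicates 1, 2 and 3 by 0.342, 0.426 and 0.353. It lowered replicate 2 the most, so this order of the libraries depends on the scaling.

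In the comparison of the libraries labelled hPRM1 with the empty vector, limma on log2(RPKM + 1) called a gene when it changed by 2-fold or more with adjusted p no higher than 0.05. Because the 9 genes were chosen on these libraries, their counts are fixed by that choice, share samples with it and are no evidence, and the share over all genes is printed beside each for the scale only. All 9 genes met the threshold upward (12.9% of the 13588 genes tested), and all 9 had groups that did not overlap (14.5%). In hPRM2 against the empty vector, the filter on low values left LCK, which was chosen for lying above the empty vector there, and LAT. LCK met the threshold with groups that did not overlap and LAT did neither (1.36% called higher and 6.01% not overlapping upward among 13126 genes). Between the libraries labelled hPRM1 and hPRM2, 7 of the 9 met the threshold as higher in the former (16.0% of 11756 genes), 8 of the 9 lay wholly above hPRM2 (19.0%), and LCK and LAT were not called.

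Marker genes of other cell types moved with the same libraries. The summed level of 10 T cell markers was 603 to 918 RPKM in the libraries labelled hPRM1, with all 10 above 0, and at most 0.495 RPKM in the empty vector and 0.406 in hPRM2, where 9 of the 10 were at 0 in all libraries of each group. Of these 10 markers, 5 are among the 9 genes themselves. TRAC had the highest mean of the list, with 203 to 297 RPKM in the libraries labelled hPRM1. The sums of 8 natural killer cell markers were 451 to 736 RPKM in the libraries labelled hPRM1, with NKG7 highest. They were 13.6 to 17.8 RPKM in the empty vector and 5.41 to 5.87 in hPRM2, where NCAM1 made up most of the sum. In hPRM2, NKG7, GNLY, KLRF1, PRF1 and GZMB were at 0. NCAM1 went the other way, at 13.2 to 17.8 RPKM in the empty vector and 4.78 to 5.87 in hPRM2. In replicates 1, 2 and 3 labelled hPRM1 it was at 0.855, 0.468 and 0.274 RPKM.

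Markers of blood cells without a T cell receptor were high there too. The 10 erythroid markers summed to 2060000 to 2270000 RPKM in the libraries labelled hPRM1, led by the hemoglobin gene HBA2, and to at most 18.2 RPKM in the other 6 libraries. The 10 neutrophil and monocyte markers summed to 3560 to 4420 RPKM (S100A9 highest, FCGR3B at 0), against 0.284 to 3.02 in the empty vector and 2.29 to 19.3 in hPRM2. The 8 platelet markers reached 336 to 595 RPKM (PF4 highest), against 17.4 to 32.1 and 8.61 to 14.0, and the 8 B cell markers 67.4 to 81.0 RPKM (CD79A highest), against 0.754 to 1.69 and 0 to 4.13. The sum of the 14 HEK293T markers went the other way. In the empty vector, LIN28A was at 0, and NEFL and SALL4 were at most 1.125 and 1.145 RPKM. The 14 summed to 233 to 315 RPKM in the empty vector (NEFM highest), 141 to 208 in hPRM2 (HOXA9 highest) and 0.407 to 0.681 in the libraries labelled hPRM1. There 11 of 14 were at 0, among them LIN28A, NEFL and SALL4 as well as LIN28B, IGF2BP1 and HMGA2. The labelled cell type was thus not visible by its markers in the libraries labelled hPRM1. The part of these markers in the levels of the 9 genes was not tested.

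The other genes of the pathway were taken as 4 lists with 86 genes, none of them among the 9. In the libraries labelled hPRM1, 74 of the 86 passed the filter on low values, 44 were called higher and 6 lower than in the empty vector, with a median log2 difference of 1.45 against -1.72 over all genes tested. Over all genes 12.9% were called higher and 62.5% lower, and this balance depended on the scaling, since 17.1% of all calls were higher as deposited, 56.5% after median-of-ratios rescaling and 44.2% after quantile normalization. The medians of all genes under these scalings were 0.14 and -0.30, against 2.97 and 2.62 for the 74 pathway genes tested.

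The chains that bind antigen had the largest median difference of the 4 lists. Of 6 constant-region genes of the receptor chains, 5 were tested and all 5 rose in the libraries labelled hPRM1, with a median log2 difference of 7.88. TRBC2 was at 324.8, 603 and 437.5 RPKM there and at 0 in the empty vector (log2 difference 8.79, SE 0.26, limma adjusted p = 2.46e-06). It lost the call in a per-gene test with unequal variances on RPKM (adjusted p = 0.0656). TRBC1, also a β chain gene, was at 302, 297.5 and 252 RPKM and at 0 or 0.182 in the empty vector (8.07, adjusted p = 1.97e-06). TRAC, the α chain gene, rose by 7.88 (adjusted p = 2.35e-06) from 0 in all 3 empty vector libraries. All 3 were at 0 in hPRM2. TRBC1 and TRBC2 are near-identical copies, as are TRGC1 and TRGC2, so the split of reads within each pair is uncertain. TRDC, the δ chain gene, was not tested and was listed at 0.726, 2.53 and 4.89 RPKM in the libraries labelled hPRM1.

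Of 19 coreceptors and costimulatory genes, 14 were tested, 12 rose and none fell in the libraries labelled hPRM1 by limma (12 higher and 0 lower also at an unadjusted p under 0.05), with a median log2 difference of 3.75. Of all 13588 genes tested, 10972 reached that unadjusted p in either direction. PTPRC, the CD45 phosphatase that keeps LCK active, was at 96.8, 148.9 and 130 RPKM there and at most 0.028 RPKM in the empty vector (6.94, SE 0.23, adjusted p = 3.02e-06). CD48, a surface protein of blood cells, rose by 5.20 (adjusted p = 4.28e-06) and CD27, a costimulatory receptor, by 5.05 (adjusted p = 1.63e-05). Both were at 0 in all empty vector libraries. CD48 was at 29.7 to 39.8 RPKM and CD27 at 20.2 to 42.8 RPKM in the libraries labelled hPRM1. CD27 lost the call in the per-gene test with unequal variances (adjusted p = 0.0765).

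Of 31 proximal kinases, adaptors and regulators, 27 were tested, 21 rose and 1 fell, with a median log2 difference of 2.41. The adaptor FYB1 was at 167, 205 and 202 RPKM in the libraries labelled hPRM1 and at 0 in the empty vector (7.58, SE 0.19, adjusted p = 1.97e-06). PTPN6, the phosphatase SHP-1 that limits signalling and is used by many blood cells, was at 156, 197 and 205 RPKM and at 0, 3.04 and 0 in the empty vector (6.86, SE 0.56, adjusted p = 4.8e-05). SIT1, a transmembrane adaptor, rose by 5.44 (adjusted p = 1.02e-05), and lost the call in the per-gene test with unequal variances (adjusted p = 0.0795). The adaptor NCK1, expressed in most tissues, fell by 1.77 (adjusted p = 0.00223), but its difference was 0.34 after median-of-ratios rescaling and -0.18 after quantile normalization.

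The downstream branches were split. Of 30 genes for calcium, MAP kinase and NF-κB signalling, which most cells express, 28 were tested, 6 rose and 5 fell in the libraries labelled hPRM1, with a median log2 difference of -0.11 against -1.72 for all genes. NFATC2, a calcium-regulated transcription factor, rose by 2.75 (adjusted p = 0.000148), the diacylglycerol kinase DGKA by 2.63 (adjusted p = 0.000231) and RASGRP1, which activates RAS in lymphocytes, by 2.16 (adjusted p = 0.000892). RASGRP1 lost the call with a pseudocount of 5. PPP3CB, a catalytic subunit of calcineurin, fell by 2.76 (adjusted p = 2.65e-05), and its difference was -0.58 after median-of-ratios rescaling and -1.14 after quantile normalization. MAP2K1 (MEK1) and CHUK (IKKα) fell by 1.97 and 1.77 (adjusted p = 0.000299 and 0.00815), but their differences were 0.20 and 0.38 after median-of-ratios rescaling and -0.35 and -0.16 after quantile normalization. The other 2 that fell, PPP3R1 and MAPK3 (by 1.28 and 1.70), had differences of 1.16 and 0.77 and of 0.42 and 0.04 under these scalings, so 4 of the 5 falls turned after median-of-ratios rescaling. BCL10 was listed at 0 in all 9 libraries.

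In hPRM2, 35 of the 86 genes could be tested and 32 were at 0 in all 6 libraries of the comparison. Limma called 1 gene higher and 2 lower than in the empty vector, against 1.36% and 1.37% of all genes, with a median log2 difference of -1.45 against -0.72 over all genes. At an unadjusted limma p under 0.05, 1 gene was higher and 17 were lower. Of all 13126 genes tested, 3351 reached that p in either direction. No receptor constant gene passed the filter, and 5 of the 6 were at 0 in every empty vector and hPRM2 library. RHOH, a GTPase of blood cells that helps ZAP70 reach the receptor, was the gene that rose. It was at 10.7, 18.5 and 17.2 RPKM in hPRM2 and at 0.467, 1.12 and 0 in the empty vector (log2 difference 3.46, SE 0.59, adjusted p = 0.0377). It also rose in the libraries labelled hPRM1, with 5.14 to 8.82 RPKM (2.45, SE 0.35, adjusted p = 0.000606). The difference between these libraries and hPRM2 was -1.01 (adjusted p = 0.0768, not called) as deposited, 0.77 after median-of-ratios rescaling and 0.12 after quantile normalization.

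VAV1, an exchange factor that acts after LAT, was at 0 in all 3 hPRM2 libraries and at 2.35, 3.56 and 5.37 RPKM in the empty vector (fell by 2.20, SE 0.41, adjusted p = 0.0428). The calcium channel gene ITPR2 was at 1.42, 0.915 and 1.45 RPKM in hPRM2 and at 25.1, 25.1 and 37.0 in the empty vector (fell by 3.72, SE 0.51, adjusted p = 0.025). RHOH, VAV1 and ITPR2 each lost the call when any 1 of the 3 empty vector libraries, or hPRM2 replicate 2 or 3, was left out, and in all they lost it in 10 of 16, 11 of 15 and 7 of 16 alternatives, with no change of sign. Without hPRM2 replicate 1, limma called 2 genes of the lists higher and 7 lower, beside 810 and 1619 of all 13126 genes.

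Between the libraries labelled hPRM1 and hPRM2, 73 of the 86 genes were tested, 48 were called higher in the former and 1 lower, against 16.0% and 37.0% of all genes, with a median log2 difference of 2.23 against -0.97. All 5 tested constant genes, 13 of 14 coreceptors, 22 of 27 proximal genes and 8 of 27 downstream genes were higher. SLA, an adaptor that lowers receptor levels, was at 37.6 to 45.2 RPKM against 0 in hPRM2 (5.42, SE 0.34, adjusted p = 0.000133). ITPR2 was higher by 3.87 (SE 0.36, adjusted p = 0.000401), NFATC2 by 3.29 and DGKA by 3.20 (adjusted p = 0.000572 and 0.00519). These 4 genes lost the call in a per-gene test with unequal variances on RPKM (adjusted p of 0.07, 0.105, 0.11 and 0.0916 for SLA, ITPR2, NFATC2 and DGKA). TRAC, TRBC1, TRBC2, PTPRC, CD48, CD27, FYB1 and PTPN6, also called higher here, lost the call in it too. In that test 3 genes of the lists were called higher in place of 48, and 116 of all 11756 genes in place of 1879. CHUK was the gene that was lower, by -1.90 (SE 0.61, adjusted p = 0.0397), and it kept its sign but lost the call in 11 of 15 alternatives, among them both other scalings (-0.25 and -0.97) and leaving out any 1 library labelled hPRM1 or hPRM2 replicate 1 or 3.

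Genes outside the 9 were ranked by how close their log2(RPKM + 1) lay to the mean profile of the 9 genes, as the Euclidean distance over the 9 libraries, among 13216 genes with a symbol. The nearest were ITGAX (distance 1.34), LRRC25 (1.47), PLVAP (1.56), CD27 (1.57) and C5AR1 (1.64), of which CD27 is also in the pathway lists. ITGAX was at 36.5 to 59.5 RPKM in the libraries labelled hPRM1 and at most 1.14 RPKM elsewhere. To LCK, the nearest were BCL3 (2.80), ZNF493 (3.09), NEAT1 (3.26), DNAJC8P2 (3.60) and GGT1 (3.80), so no gene lay as near to LCK as those 5 lay to the mean profile. BCL3 was at 1.34, 5.45 and 2.70 RPKM in the empty vector, at 18.7, 16.6 and 19.3 in the libraries labelled hPRM1 and at 102, 35.6 and 7.72 in hPRM2. Its hPRM2 libraries spread more widely than those of LCK.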

How the data were processed

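RNA was profiled in 9 libraries, labelled as HEK293T cells with 3 libraries per group (empty vector, hPRM1, hPRM2). The authors used the QuantSeq 3′ mRNA kit, an Illumina NovaSeq and nf-core/rnaseq with FastQC, Cutadapt, STAR and Salmon on hg38; tool versions and the annotation are not given in the sources used here. They removed mitochondrial genes and deposited RPKM values (per library total and gene length) for 57338 genes in 1 table, without counts; 0 columns were left unused. Symbols were matched to 71.7% of the identifiers, not counting entries that repeat the identifier.

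Groups were tested by limma 3.58.1 (trend and robust; R 4.3.3) on log2(RPKM + 1), over genes that reached an RPKM of 1 in 3 or more of the 6 libraries compared, with Benjamini-Hochberg adjustment over all genes tested. Genes were called at adjusted p ≤ 0.05 with a change of 2-fold or more. Each comparison was fitted on its own 6 libraries without a replicate block. The same code was tested on simulated data. Reads were estimated from the steps of low values over 13863 GENCODE 29 genes that have 1 transcript, 600 to 20000 bases long, with 250 bases subtracted from each length. Whole reads were not recovered, so no count test was run. Descriptions and plots used pandas 2.3.3, matplotlib 3.10.9 and numpy 2.4.6 in Python 3.11.15.

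The 9 genes, the 4 pathway lists, the marker lists and the tests were chosen with earlier results of these data known. Named pathway genes are the 3 largest rises and 3 largest falls of each list and comparison among called genes whose groups did not overlap. AC109460.3, RF00017, TRDC, BCL10, PPP3R1, MAPK3 and the genes listed in the closing section were named after their values were seen. Values of a few genes are not reported here. The alternatives changed the pseudocount (0.1 or 5), the filter (none, or 10 RPKM), the scaling (median of ratios, or quantile normalization), the fit (all 9 libraries together, or with replicate number as a block), the test (gene by gene on RPKM with unequal variances, a form the study does not state), the fold threshold (none) and the libraries (each left out in turn).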

Additional observations from a re-analysis of the deposited data

How the results depend on the processing

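Counts of called pathway genes were recomputed under 10 alternatives and without each library. For the libraries labelled hPRM1 against the empty vector, the 44 higher and 6 lower genes became 22 higher with a minimum of 10 RPKM, 23 higher with a per-gene test with unequal variances on RPKM, 0 lower after median-of-ratios rescaling (1 lower at an unadjusted p under 0.05, limma), 1 lower after quantile normalization and 10 lower without a fold threshold. After the 2 rescalings 66 and 58 were higher. Over all genes, the 1750 called higher became 867 with the minimum of 10 RPKM and 791 with the per-gene test. They became 4434 and 3475 after the rescalings. Leaving out a library gave 42 to 44 higher and 6 to 8 lower. Of the 6 lower genes, 5 changed sign after median-of-ratios rescaling: NCK1, MAP2K1, CHUK, PPP3R1 and MAPK3 (0.34, 0.20, 0.38, 1.16 and 0.77); the cause was not tested.

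For hPRM2 against the empty vector, the 1 higher gene became 0 with a pseudocount of 0.1, no filter, a minimum of 10 RPKM, or the per-gene test, with 1 higher at an unadjusted p under 0.05 in each. The 2 lower genes became 1 with a pseudocount of 5, no filter, a minimum of 10 RPKM and both rescalings, 0 with the per-gene test (12 at an unadjusted p under 0.05) and 12 in the fit of all 9 libraries, which shares its spread with the libraries labelled hPRM1. Over all 13126 genes, that fit called 1618 lower in place of 180. The per-gene test had 2517 of them at an unadjusted p under 0.05 in either direction. Leaving out a library gave 0 to 2 higher and 0 to 7 lower, with the highest counts without hPRM2 replicate 1. Over all genes, 179 were higher and 180 lower in hPRM2, against 810 and 1619 without hPRM2 replicate 1 and 10 and 2 without empty vector replicate 3. The share of higher among all calls was 49.9%, and 78.7% and 83.0% after median-of-ratios rescaling and quantile normalization.

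For the libraries labelled hPRM1 against hPRM2, the 48 higher genes became 23 with a minimum of 10 RPKM and 3 with the per-gene test. Over all genes, the 1879 called higher became 922 and 116 under these settings. The 1 lower gene, CHUK, became 0 with a pseudocount of 0.1, no filter, a minimum of 10 RPKM, both rescalings and the per-gene test. Leaving out a library gave 45 to 53 higher and 0 to 2 lower. The share of higher among all calls was 30.1%, and 62.5% and 48.3% after the rescalings.

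Same-numbered libraries deviated from their group means with correlations of -0.078 to 0.08 over 14901 genes, so the replicate numbers were not taken as pairs. With a replicate block, 44 pathway genes were higher and 6 lower in the libraries labelled hPRM1 against the empty vector, 0 and 0 in hPRM2 (1 and 13 at an unadjusted p under 0.05, limma), and 48 and 0 between the libraries labelled hPRM1 and hPRM2. With that block, 2711 of all 13126 genes tested in hPRM2 against the empty vector reached the unadjusted p in either direction. In the libraries labelled hPRM1, the differences of the 9 genes from the empty vector kept their sign under the 10 pseudocount, scaling and left-out-library settings tried, with LCK between 2.23 and 5.38. For hPRM2, LCK ranged from 3.00 to 5.75 and LAT from 1.60 to 4.21, while CD8A and ZAP70, near 0 in both groups, changed sign after quantile normalization. The low depth of hPRM2 limits what a value of 0 shows there.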

Other observations

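Several pathway genes that the filter on low values removed in hPRM2, or that were not called, had a level in single hPRM2 libraries. ORAI1, the pore subunit of the calcium channel that opens after receptor signalling, was listed at 40.1 RPKM in hPRM2 replicate 1 and at 0 in the other 8 libraries. SIT1 was listed at 3.17 RPKM in hPRM2 replicate 3 and at 0 in the other hPRM2 and empty vector libraries. IKBKB, a kinase of the NF-κB branch, was at 58.0, 5.44 and 7.76 RPKM in hPRM2, against 5.52 to 10.4 in the empty vector, so 1 of 3 hPRM2 libraries stood apart. These genes were picked after their values were seen, and no test is given for them.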
